A study of Homo sapiens with 12 samples.

Results

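The subject here is the peaks that lie in the outermost 1 Mb of the chromosomes in U2OS, a human osteosarcoma line that keeps its telomeres by the ALT (alternative lengthening of telomeres) pathway. Members were all rows of 2 deposited peak lists whose summit lay less than 1 Mb from either hg38 end of chromosomes 1 to 22. This rule took 63 of 1460 REXO4 peaks and 2040 of 54623 RNaseH1 peaks, 2103 of 56083 in all. No filter on low values was applied, so all 2103 are counted. They are called end peaks below, and each end is named by chromosome and arm, such as 2p. Another 1307 REXO4 and 50207 RNaseH1 peaks lay in the rest of chromosomes 1 to 22.

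The study mapped a Flag-tagged protein by ChIP-seq, in which fixed chromatin is precipitated with an antibody to the tag and its DNA is sequenced. Every group carried a tet-on transgene, in 1 line for REXO4-D386A and in the other for RNaseH1-D210N, and both proteins are nuclease-dead mutants. REXO4 is a member of the RNA exonuclease family, and RNaseH1 is the enzyme that cuts RNA when it is paired with DNA. The labels describe 12 libraries in 8 groups: each line was grown with doxycycline at 1 µg/ml for about 60 h or without it, with 2 ChIP and 1 input library per line and condition. The groups with doxycycline are those in which the tagged protein is induced; the groups without it are the uninduced state of the same lines. The values analysed were 1 peak list per protein, with no value per library. It is not known whether a list rests on 1 or both ChIP libraries, so the intervals below are 95% exact intervals that cover counting error only, and no p-value is given. The uninduced cells were not analysed here, so how much of an end peak depends on doxycycline was not tested.

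An R-loop forms when RNA pairs with 1 strand of a DNA duplex and displaces the other. Telomeres are arrays of TTAGGG repeats, and they are transcribed into TERRA, a long noncoding RNA that starts at CpG-rich promoters in the subtelomere, runs towards the end of the chromosome and can form RNA:DNA hybrids there. ALT cells lengthen telomeres by recombination, and TERRA hybrids and RNaseH1 have been studied at ALT telomeres. The sequence next to the telomeres is built from duplicated blocks that recur on many chromosomes, with families such as DDX11L, WASH, FAM138, OR4F and RPL23AP. Blocks of different ends can be almost identical, so sequenced fragments that map to 1 end may come from another. The telomere repeats themselves are mostly missing from hg38, which writes the outermost stretch of many ends as unsequenced bases.

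Promoter sequences from RefSeq (GRCh38.p14, 300 bases each, of which 250 lie before the annotated start) show the sequence at annotated starts close to the ends, some under a peak and some not. Of 35116 promoters, 2 held the 28-base string GCGCCGGCGCAGGCGCAGAGAGGCGCGC on either strand (0.00570%), and both were in chromosome ends. It is the longest string that both hold at least 7 times, and it fills all but 1 base of a 29-base repeat of the kind described in TERRA promoters. The 2 are printed here 5′ to 3′ on the transcript's strand, with each copy of the string in capitals, because 1 of them lay beside a peak and the other did not, and no peak overlapped either. LINC02684 starts at 11q (chr11:135076148-135076447, minus strand), and LINC01986 starts at 3p (chr3:11501-11800, plus strand).
LINC02684: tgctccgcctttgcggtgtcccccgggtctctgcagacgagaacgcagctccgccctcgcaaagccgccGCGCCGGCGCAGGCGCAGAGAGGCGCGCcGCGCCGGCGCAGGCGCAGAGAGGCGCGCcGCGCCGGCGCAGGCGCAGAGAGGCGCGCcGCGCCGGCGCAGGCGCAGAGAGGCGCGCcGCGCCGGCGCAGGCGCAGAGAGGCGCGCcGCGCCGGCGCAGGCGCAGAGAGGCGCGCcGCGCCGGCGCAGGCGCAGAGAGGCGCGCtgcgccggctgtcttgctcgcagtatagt
LINC01986: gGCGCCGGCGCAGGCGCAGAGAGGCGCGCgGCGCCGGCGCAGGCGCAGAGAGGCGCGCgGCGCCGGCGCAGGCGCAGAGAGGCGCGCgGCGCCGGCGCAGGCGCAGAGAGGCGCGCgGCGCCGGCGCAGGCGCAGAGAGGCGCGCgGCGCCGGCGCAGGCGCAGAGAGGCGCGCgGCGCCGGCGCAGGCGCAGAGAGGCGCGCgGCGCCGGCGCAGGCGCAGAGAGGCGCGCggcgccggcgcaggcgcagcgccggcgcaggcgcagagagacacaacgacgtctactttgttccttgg
The LINC02684 promoter held 7 copies and the LINC01986 promoter 8, each 29 bases from the next. An RNaseH1 peak (fold 3.44) lay 57 bp from the 11q promoter. The nearest RNaseH1 peak to the 3p promoter was 27647 bp away. Both annotated transcripts run from the end towards the centromere, opposite to the direction known for TERRA. The telomere hexamer TTAGGG, searched on both strands, stood in 6.45% of the 1038 end promoters and in 9.05% of all 35116.

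A second pair of promoters shows how alike the ends can be. LOC102723376 starts at 10p (chr10:11471-11770) and LINC02564 has a start at 18p (chr18:11825-12124), both on the plus strand, and capitals mark the base that differs.
LOC102723376: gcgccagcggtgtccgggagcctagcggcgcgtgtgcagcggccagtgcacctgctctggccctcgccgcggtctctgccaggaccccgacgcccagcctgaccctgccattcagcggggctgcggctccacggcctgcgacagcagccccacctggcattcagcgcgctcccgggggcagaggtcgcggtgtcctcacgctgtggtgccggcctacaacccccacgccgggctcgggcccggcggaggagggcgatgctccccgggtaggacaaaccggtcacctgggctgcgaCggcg
LINC02564: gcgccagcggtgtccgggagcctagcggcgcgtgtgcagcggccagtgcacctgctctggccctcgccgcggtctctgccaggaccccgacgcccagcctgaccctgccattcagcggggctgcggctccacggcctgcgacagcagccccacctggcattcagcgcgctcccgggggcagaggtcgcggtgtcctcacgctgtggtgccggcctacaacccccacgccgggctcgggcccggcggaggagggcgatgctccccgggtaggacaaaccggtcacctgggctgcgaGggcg
They were identical at 299 of 300 positions, and the substitution from the 10p to the 18p promoter was C296G, counted from 1 at the 5′ end. An RNaseH1 peak of fold 3.28 overlapped the 10p promoter. The nearest peak at 18p (fold 3.03, 11 fragments) ended 191 bp outside the 18p promoter printed here. That peak overlapped another annotated LINC02564 promoter (chr18:11310-11609). Over most of this window, which of the ends a fragment came from cannot be told apart.

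The outermost sequence that carried peaks did so densely. Fold enrichment below is the authors' value per peak, which compares the fragments over the summit with a local expected pileup after adding 1 to each. No summit of either list lay within 10 kb of an end. Unsequenced bases cannot carry a peak, and how far they reach at each end was not read. Between 10 and 12 kb of the 39 ends that have an annotated gene, there were 27 RNaseH1 summits, or 346 per Mb (228 to 504). The same interval held 5 REXO4 summits, or 64.1 per Mb (20.8 to 149.6). Between 12 and 100 kb the densities were 30.3 RNaseH1 peaks per Mb (24.8 to 36.7) and 1.17 REXO4 peaks per Mb (0.318 to 2.98). The limit of 12 kb was chosen after the positions were seen, so this contrast is a description.

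**Figure D1:**
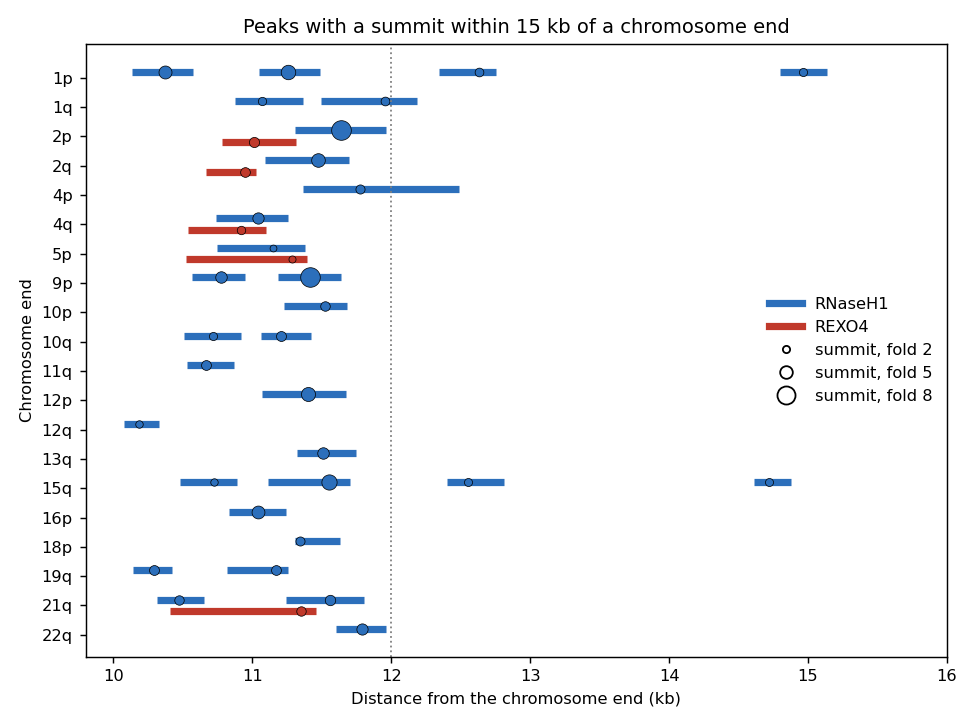
Peaks with a summit within 15 kb of a chromosome end, for the 20 ends that have one. Bars span each peak, in kb from the chromosome end, blue for RNaseH1 and red for REXO4. Circles mark summits and grow with the authors' fold enrichment, and the dotted line marks 12 kb. All summits lie beyond 10 kb, and the 5 ends with a REXO4 peak (2p, 2q, 4q, 5p and 21q) also have an RNaseH1 peak.

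These 27 terminal RNaseH1 peaks stood on 20 of the 39 ends, 9 short arms and 11 long arms, with summits 10185 to 11953 bp from the end. Another 19 ends had none, and 7 ends had more than 1. Their median fold was 3.51, against 2.88 for the other end peaks, and 20 of the 27 were above the median of the RNaseH1 list. The 6 nearest to an end were at 12q (10185 bp, fold 2.15), 19q (10293 bp, fold 3.47), 1p (10372 bp, fold 5.19), 21q (10476 bp, fold 3.24), 11q (10667 bp, fold 3.44) and 10q (10720 bp, fold 2.52). Only 3 of the 27 (11.1%) had a summit within 1 kb of where a protein-coding or lncRNA gene begins or ends, beside 31.0% of all RNaseH1 peaks on chromosomes 1 to 22, and the other 24 lay outside such genes.

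The terminal peaks fell into families by the nearest annotated gene. Beside DDX11L pseudogenes, copies related to a DNA helicase gene, lay 8 peaks on 5 ends (1p, 9p, 12p, 15q and 16p). Their summits were 514 to 1501 bp from the pseudogene and their median fold was 5.48. The highest of each end were DDX11L5 at 9p with fold 8.84 (interval 7.43 to 10.4, 138 fragments), DDX11L9 at 15q with 6.44 (4.63 to 8.75, 39 fragments), DDX11L1 at 1p with 6.03 (4.68 to 7.64, 66 fragments), DDX11L8 at 12p with 5.78 (4.84 to 6.84, 132 fragments) and DDX11L10 at 16p with 5.12 (3.92 to 6.58, 59 fragments). Beside RPL23AP pseudogenes, copies of a ribosomal protein gene, lay 11 peaks on 7 ends (1q, 2q, 4q, 10q, 19q, 21q and 22q). These were 6373 to 8251 bp from the pseudogene and had a median fold of 3.47, with RPL23AP88 at 2q highest at 5.54 (4.60 to 6.62). The remaining 8 peaks were 1 on each of 8 ends and had a median fold of 3.17. Of the 19 ends whose outermost gene lies within 20 kb, 16 had a terminal RNaseH1 peak, and of the 20 ends whose outermost gene lies further in, 4 did. An end that hg38 leaves unsequenced beyond 12 kb can have neither a terminal peak nor a gene there. The part of this in the contrast was not tested. Members of a family share sequence, so they are not independent observations, and the part of misplaced fragments was not tested.

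The terminal peak of highest fold was at 2p (chr2:11305-11963). It had 58 fragments against an expected 5.65, fold 8.87 (6.77 to 11.4), and lay 27174 bp from the nearest gene, FAM110C. A REXO4 peak of fold 3.65 (2.77 to 4.74) lay on its telomeric side (chr2:10784-11312) and overlapped it by 8 bp. Terminal REXO4 peaks also stood at 2q (fold 3.37), 21q (3.23), 4q (2.67) and 5p (1.93). Of the 5, 4 overlapped an RNaseH1 peak, beside 71.8% of all REXO4 peaks on chromosomes 1 to 22, and the peak at 2q missed one by 66 bp. The sixth REXO4 peak in order of distance lay well inside, at 36994 bp in the DUX4 array of 10q (DUX4L15, fold 1.96).

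Some terminal peaks stood on a high expected pileup, the local level of fragments that the peak caller compares with. At 12q the expected pileup was 67.9 and at 5p it was 85.0, against a median of 10.7 for the 27 terminal RNaseH1 peaks. These peaks had folds of only 2.15 and 1.80. The 5p REXO4 peak also stood on a high expected pileup of 60.5. The part of repeated sequence in these pileups was not tested.

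Away from the outermost sequence, RNaseH1 peaks became denser towards the centromere. The density was 28.7 to 36.2 per Mb in each interval from 12 to 300 kb, 51.8 per Mb (44.9 to 59.5) at 300 to 400 kb, and 65.4 per Mb (57.6 to 73.9) at 900 to 1000 kb. Over 10 to 500 kb there were 801 peaks, 41.9 per Mb (39.1 to 44.9), and over 500 to 1000 kb there were 1239, 63.5 per Mb (60.0 to 67.2). Genes of both classes together rose less: these spans held 28.5 and 30.9 protein-coding or lncRNA genes per Mb. Protein-coding genes alone were spread less evenly. In the outer 500 kb, 194 had an RNaseH1 peak at a boundary and 93 had none, against 480 and 177 in the whole 1 Mb. The number of peaks per 100 genes of both classes was 147 in the outer span and 205 in the inner one. Peaks per protein-coding gene alone were not computed by span. REXO4 peaks numbered 28 in the outer and 35 in the inner span, 1.47 per Mb (0.974 to 2.12) and 1.79 per Mb (1.25 to 2.50), and these intervals overlap. At the limit of 1 Mb there was no step: 126 RNaseH1 peaks lay at 950 to 1000 kb and 128 at 1000 to 1050 kb, with median folds of 2.89 and 2.85. REXO4 had 4 peaks just inside and 5 just outside.

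**Figure D2:**
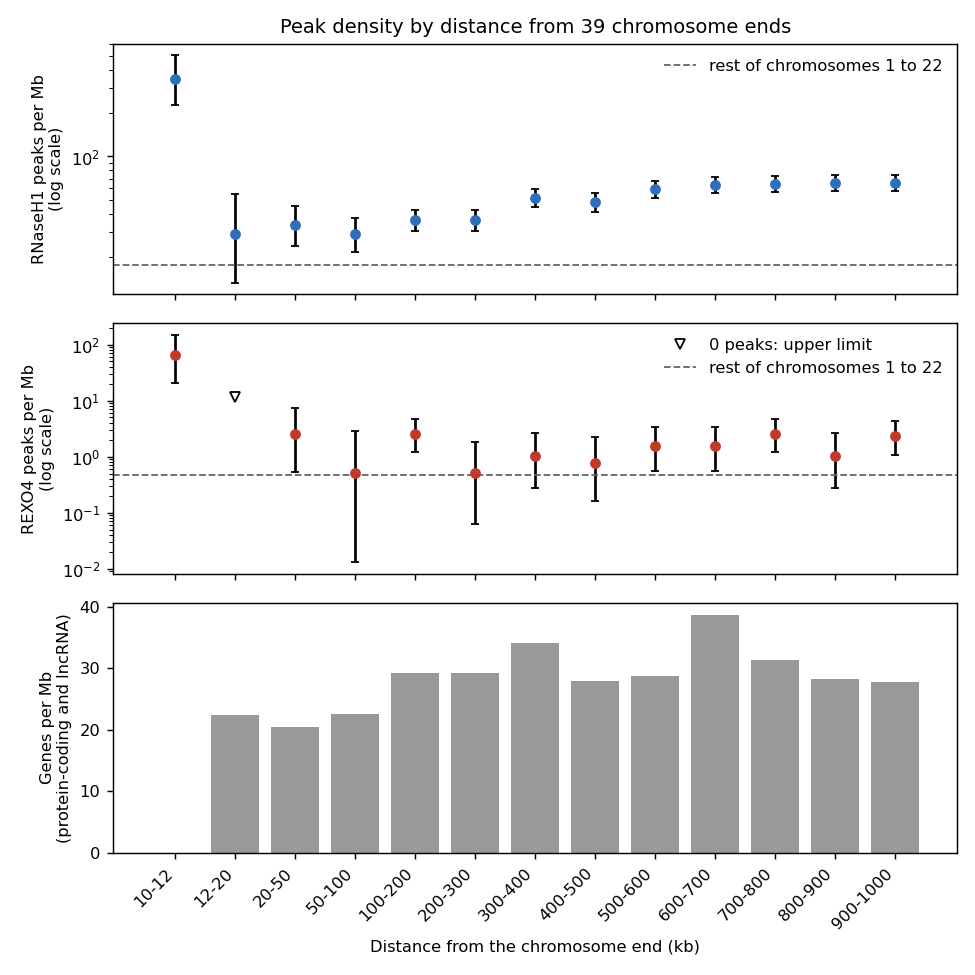
Peak density against distance from the end, summed over the 39 ends with an annotated gene, for RNaseH1 (top) and REXO4 (middle), both on a log scale, and gene density (bottom, linear). Points are peaks per Mb with 95% exact Poisson intervals, the triangle is the upper limit where no peak was found, and dashed lines are the rest of chromosomes 1 to 22. RNaseH1 falls from 346 per Mb at 10 to 12 kb to 28.8 at 12 to 20 kb and then climbs to 65.4.

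Against the rest of the chromosomes, the ends were dense in both lists. RNaseH1 had 46.4 peaks per Mb over the 44 ends and 17.7 per Mb elsewhere, a ratio of 2.61 (2.50 to 2.73). REXO4 had 1.43 and 0.462 per Mb, a ratio of 3.10 (2.37 to 3.99). The ends were also rich in genes, with 26.1 protein-coding or lncRNA genes per Mb against 12.5, a ratio of 2.09. This ratio was 2.31 for protein-coding genes and 1.85 for lncRNA genes, so a ratio of peaks per gene depends on the class counted. The ratios per gene below count both classes together. Per gene, the ends held 1.78 RNaseH1 peaks and the rest 1.42, a ratio of 1.25 (1.20 to 1.31). The REXO4 ratio per gene was 1.48 (1.13 to 1.91). The RNaseH1 ratio per gene was 1.03 (0.957 to 1.10) over the outer 500 kb alone, where the rest includes the inner 500 kb. For REXO4 it was 1.38 (0.911 to 2.00) over the same span.

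Windows of 1 Mb with the same number of genes give a closer comparison. With 21 to 30 genes, the median was 42.5 RNaseH1 peaks in 12 end windows and 35 in 269 interior windows. With 46 or more genes, it was 98 in 7 ends and 74 in 39 interior windows, and with 31 to 45 genes it was 57 in 10 ends and 54 in 128. In each of these bins the range of the ends lay within that of the interior windows. At the interior rate of the same bins, the ends would hold 1737 RNaseH1 peaks, and they held 2040, a ratio of 1.17 (1.12 to 1.23). For REXO4 they would hold 43.3 and held 63, a ratio of 1.45 (1.12 to 1.86). Windows on 1 chromosome are not independent, which these intervals leave out.

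**Figure D3:**
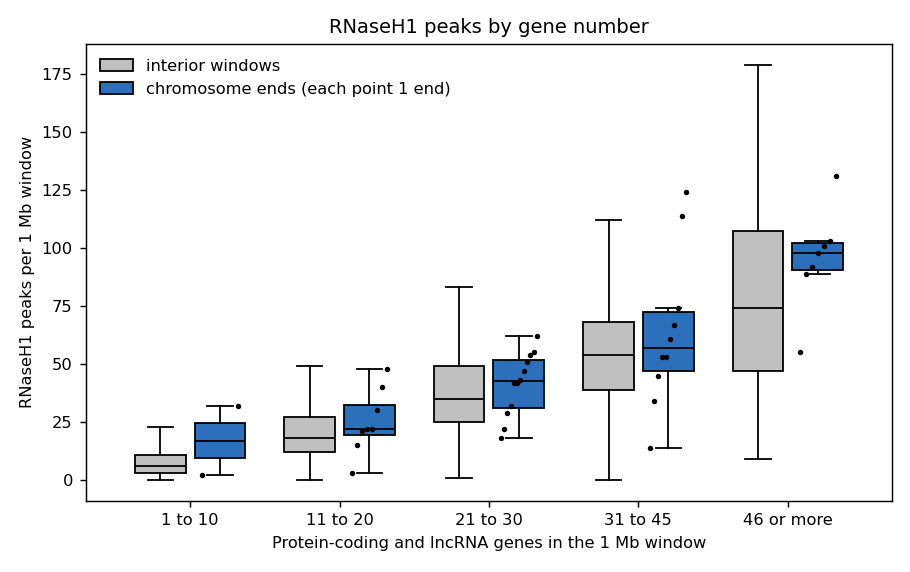
RNaseH1 peaks per 1 Mb window by the number of protein-coding and lncRNA genes in it, for interior windows (grey) and chromosome ends (blue, each point 1 end). Boxes show the median and quartiles, and whiskers reach the last window within 1.5 times the interquartile range. The medians of the ends are above those of the interior in each bin drawn, such as 42.5 against 35 with 21 to 30 genes, while the ranges overlap.

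The ends differed widely from each other. The 5 short arms of chromosomes 13, 14, 15, 21 and 22 carry no gene of this table and no peak in their outer 1 Mb, and hg38 leaves most of these arms unsequenced. Over the other 39 ends the RNaseH1 count ran from 2 to 131 with a median of 47. The most were 131 at 19p, 124 at 17q, 114 at 16q and 103 at 8q, and the fewest were 2 at 14q, 3 at 3p, 14 at 1q and 15 at 8p. In 34 of the 39 the density was above that of the rest of the same chromosome, and in 5 (1q, 3p, 8p, 14q and 19q) it was below. At 8q there were 103 per Mb against 17.2 in the rest of chromosome 8, and at 13q 62 against 9.56. The 19q end had 55 per Mb, close to the 56.3 of the rest of chromosome 19, the densest chromosome body here.

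Gene number went with peak number across the ends, with exceptions. Over the 39 ends Spearman's rho was 0.757 and Pearson's r 0.714, given as a description because all ends share the same libraries. Peaks per 100 genes nevertheless ran from 23.1 at 3p to 354 at 17q, with a median of 169. The 1q end had 39 genes, 32 of them protein-coding, and 14 peaks, or 35.9 per 100 genes. The 14q end had no protein-coding gene and 6 lncRNA genes, and 17q had 35 genes and 124 peaks. The arms of a chromosome could differ: 3p had 3 RNaseH1 peaks with 13 genes and 3q had 40 with 20. REXO4 peaks were found at 31 of the 39 ends. They were most numerous at 20q with 5, followed by 4 each at 1p, 4q, 10q, 11p and 22q. The 8 ends without one were 1q, 3p, 3q, 4p, 8p, 9p, 9q and 14q.

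**Figure D4:**
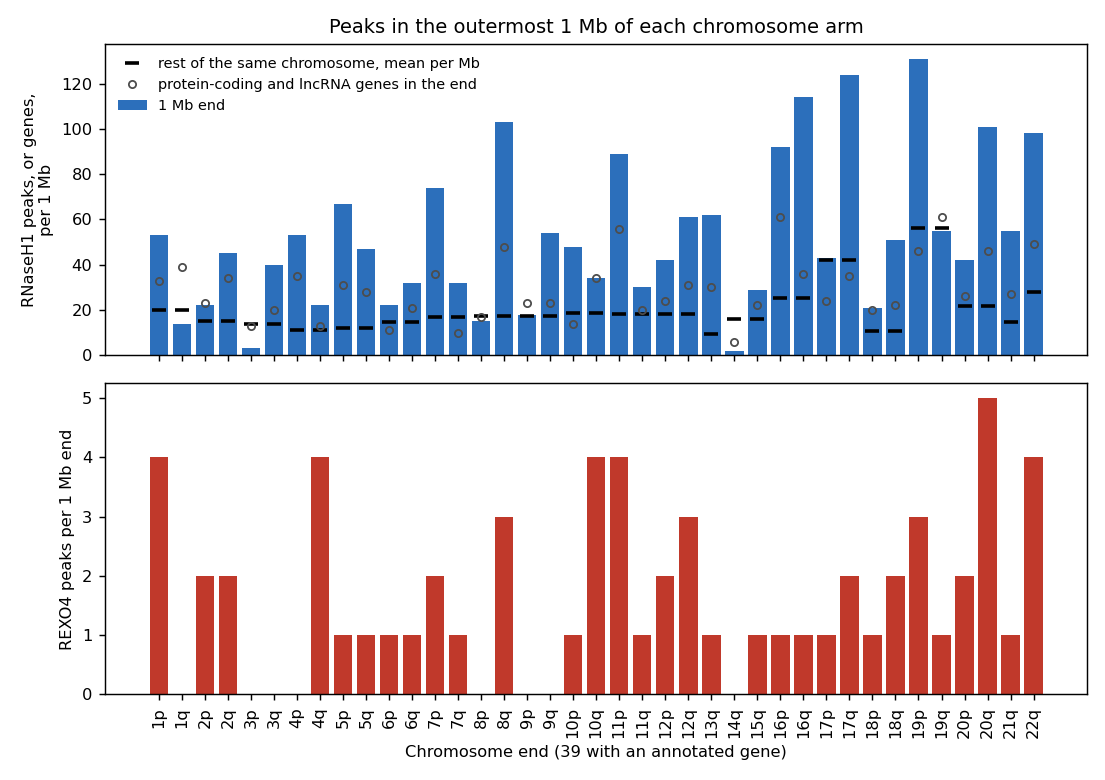
Peaks in the outermost 1 Mb of the 39 ends that have an annotated gene. The top panel gives RNaseH1 peaks (bars), the mean per Mb of the rest of the same chromosome (dashes) and genes in the end (circles), and the bottom panel gives REXO4 peaks. RNaseH1 bars run from 2 at 14q to 131 at 19p, and 34 of 39 are above their dash.

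REXO4 end peaks mostly coincided with RNaseH1 peaks. Of the 63, 53 overlapped one by at least 1 bp, 84.1% (72.7 to 92.1), beside 71.8% of the 1370 REXO4 peaks on chromosomes 1 to 22. They made 58 pairs, and the 58 RNaseH1 peaks concerned are 2.84% of the RNaseH1 end peaks, beside 1.99% of that list on chromosomes 1 to 22. The nearest summits were a median of 133 bp apart, and those of 32 REXO4 peaks were within 200 bp. The interval of the share of REXO4 end peaks lies just above the figure for the list. It was 70.5 to 90.8 with peaks of q 0.05 or less, 71.8 to 97.7 with a window of 500 kb and 72.2 to 86.2 with 2 Mb. The figure for the list was not computed again at that q. RNaseH1 peaks were also denser and wider at the ends than elsewhere, and the part of this in the share was not tested.

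The 8 pairs with the lowest summed fold ranks were mixed in location. Apart from the terminal pairs at 2p and 21q, 1 lay at 1p near DDX11L17 (folds 3.28 for REXO4 and 5.31 for RNaseH1) and another at 6p near SEPTIN14P6 (2.56 and 5.22), both named after the nearest pseudogene. Inside SCGB1C1, a secretoglobin gene at 11p, the folds were 3.66 and 3.92. At 19p the pair stood at the boundary of WDR18, which takes part in ribosome biogenesis (chr19:982745-983068 for REXO4), with folds of 2.75 and 6.08 and summits 13 bp apart. The other pairs were outside genes near B4GALNT3 at 12p, a glycosyltransferase gene (2.93 and 5.70), and inside LOC105378947, a protein-coding gene of this table, at 1p (2.71 and 4.86).

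The 10 REXO4 end peaks without an RNaseH1 overlap stood on a lower expected pileup. Its median was 11.1, against 41.4 for the 53 others, and their median fold was 3.23 against 2.14. A fold that passes the caller's threshold has to be higher where the expected pileup is lower, so these folds are not compared further. The one with the most fragments was at a boundary of PTPRN2, a receptor-type phosphatase gene at 7q, with 304 fragments against an expected 78.0, fold 3.86 (3.44 to 4.32). The nearest RNaseH1 peak was 62995 bp away. The 2 of highest fold rested on few fragments: 16 at 4q, 20782 bp from LOC124900838 (fold 5.49, 3.27 to 8.71), and 19 at 11q, 18421 bp from B3GAT1-DT (4.24, 2.64 to 6.50). In DRD4, the dopamine D4 receptor gene at 11p, the peak rested on 15 fragments (fold 3.39, 1.99 to 5.45), and the nearest RNaseH1 peak was 3987 bp away. Some of the 10 were near misses, among them GALNT9 at 12q with a gap of 119 bp. The highest-fold REXO4 end peak that did overlap was in ZBTB46, a zinc finger gene at 20q (4.10, 3.31 to 5.03).

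**Figure D5:**
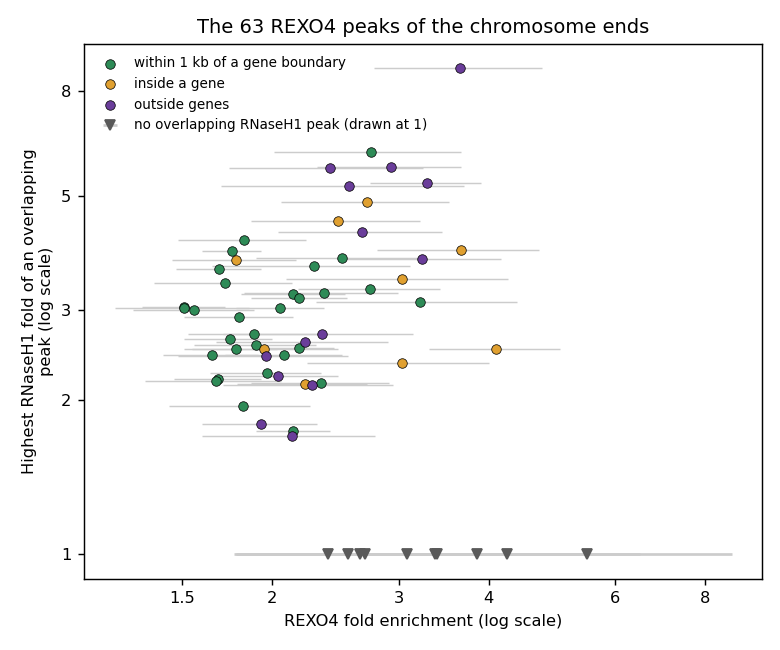
Fold enrichment of the 63 REXO4 end peaks against the highest fold of an RNaseH1 peak that overlaps each, both on log scales. Colours give the place of the REXO4 summit, grey lines are 95% exact intervals of the REXO4 fold, and triangles at 1 are the 10 peaks with no overlap. The 53 overlapping peaks have REXO4 folds up to 4.10, and the highest RNaseH1 fold, 8.87, is the terminal peak of 2p.

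The strength of end peaks was close to that of the lists they come from. The median REXO4 fold was 2.27 (quartiles 1.90 and 2.74) at the ends and 2.27 in the rest. The median RNaseH1 fold was 2.89 (2.52 and 3.39) at the ends and 3.07 in the rest. The expected pileup of RNaseH1 peaks had a median of 8.78 at the ends and 7.14 elsewhere, and the part of this in the lower fold was not tested. For REXO4 the medians were 27.4 and 36.6. RNaseH1 end peaks were 402 bp wide at the median and the others 361 bp. REXO4 summits were within 1 kb of a gene boundary in 34 of 63 cases (54.0%), beside 54.9% over chromosomes 1 to 22. For RNaseH1 this was 683 of 2040 (33.5%), beside 31.0%.

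The highest RNaseH1 folds of the ends were at tRNA genes, which RNA polymerase III transcribes. All 21 tRNA genes of the ends had an RNaseH1 peak within 1 kb, beside 80.5% of the 425 on chromosomes 1 to 22, and 0 of 21 had a REXO4 peak (upper limit 16.1%), beside 4.71%. The 16 end peaks at them had a median fold of 12.2, against 2.88 for the other 2024, and none overlapped a REXO4 peak. At 17q TRX-CAT1-8, a tRNA gene with the anticodon CAT, had fold 27.0 (25.3 to 28.7, 1005 fragments). At 5q the tRNA cluster beside TRIM7 and TRIM41 gave most of the others, with TRV-AAC2-1 at 17.0, TRA-TGC3-1 at 16.8, TRL-AAG1-3 at 15.5, and the peaks named after TRIM41 at 19.1 (TRK-CTT2-3 and TRV-CAC1-5) and TRIM7-AS2 at 15.3 (TRT-TGT6-1). At 1q the peak at PGBD2, 82627 bp from the end, covered TRL-CAA4-1 and TRE-CTC2-1 and had fold 12.8 (11.2 to 14.6), the highest of an end with only 14 peaks. The other peaks beside tRNA genes at 5q ran down to fold 2.55, and TRV-AAC1-4 had peaks of 3.02 and 3.01.

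At 16p the peak near METTL26 (fold 19.3, 17.4 to 21.5) covered the glycine tRNA gene TRG-CCC2-2, which lies in the promoter of LOC100287175. The first 120 bases of that promoter (chr16:636702-636821, plus strand) are printed to show the polymerase III element in it. Capitals mark the B box, searched on both strands as GGTTCGA, any 2 bases and CC, and found in 65 of 35116 promoters (0.185%) and in 3 of the 1038 end promoters.
LOC100287175: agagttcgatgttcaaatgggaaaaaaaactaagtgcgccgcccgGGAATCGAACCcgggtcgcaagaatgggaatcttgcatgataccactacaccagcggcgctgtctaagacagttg
The match is on the opposite strand to LOC100287175.

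Apart from tRNA genes and the terminal peaks at 2p and 9p, the next folds stood at single genes and, in 1 case, away from genes. ADAP1 at 7p, which encodes an adaptor that regulates ARF GTPases, held a peak of fold 8.70 (7.33 to 10.2). LOC124904333 at 18q held one of 7.67 (5.96 to 9.72). CFAP46 at 10q, a cilium protein gene, had 7.62 (5.73 to 9.95). CFD at 19p, which encodes complement factor D, had 7.24 (5.32 to 9.63), and PPDPF at 20q had 7.17 (6.30 to 8.13). At 18p a peak of 7.24 (5.32 to 9.63) lay 8642 bp from the nearest annotated gene, the pseudogene IL9RP4. These were chosen after their values were seen, and none overlapped a REXO4 peak.

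The stretches of 4q and 10q that hold macrosatellite arrays carried RNaseH1 peaks of low fold. The arrays consist of D4Z4 units, each with a copy of DUX4, a transcription factor gene that is silent in most adult tissues. From the first to the last DUX4 gene, the 4q stretch spans 165 kb with 10 annotated copies and other sequence between them. It held 18 RNaseH1 peaks with a median fold of 2.53 and 2 REXO4 peaks of 2.04 and 2.35. Of the 18, 12 had a DUX4 copy as their nearest gene (median fold 2.53) and 6 another gene. The 10q stretch spans 96.7 kb with 14 copies and held 11 RNaseH1 peaks (median 2.44) and 4 REXO4 peaks of 1.96 to 2.39, all nearest to a DUX4 copy. Of these 6 REXO4 peaks, 5 overlapped an RNaseH1 peak. The medians were under the 2.89 of all RNaseH1 end peaks. D4Z4 units are near-identical, so for peaks at them the copy of origin cannot be told apart.

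Protein-coding genes of the ends had an RNaseH1 peak at a boundary in 480 of 657 cases, 73.1% (69.5 to 76.4), beside 68.2% over chromosomes 1 to 22. REXO4 peaks were at 35 of 657, 5.33% (3.74 to 7.33), beside 3.96%. Genes were placed by their midpoint, and 6 of the 480 and 2 of the 35 (PCBP3 and RSPO4) had such a peak only beyond the limit of 1 Mb. For lncRNA genes the RNaseH1 share was 201 of 491, 40.9% (36.6 to 45.4), beside 27.5%, and the REXO4 share was 7 of 491, 1.43% (0.575 to 2.92), beside 1.29%. Of 1038 end promoters, 515 overlapped an RNaseH1 peak, 49.6% (46.5 to 52.7), beside 44.9%, and 21 overlapped a REXO4 peak, 2.02% (1.26 to 3.08), beside 1.68%. Promoters with an RNaseH1 peak had a median GC content of 72.7% and 35 CG pairs, and those without had 59.0% and 9. With a REXO4 peak the values were 79.0% and 45, and without one 66.0% and 22. Outside the ends the promoters differed in the same way, with 67.0% against 48.3% GC for RNaseH1.

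Genes with a REXO4 peak at a boundary had varied roles. Among transcription regulators, SOX18 at 20q, a factor of blood vessel development, had REXO4 fold 2.34 and RNaseH1 fold 2.59. SOX12 at 20p had 1.89 and 4.88, and TFDP1 at 13q, a partner of E2F factors, had 1.65 and 2.45. Genes for RNA-binding or RNA-processing proteins were also among them: PTBP1 at 19p, a splicing repressor, had 2.29 and 3.91, and CPSF1 at 8q, a subunit of the polyadenylation complex, had 2.18 and 3.19. PDGFA at 7p, a growth factor gene, had 2.08 and 2.28, and ATG4B at 2q, a protease of autophagy, had 1.69 and 3.78. B4GALNT4 at 11p had a REXO4 peak of 2.69 and no RNaseH1 peak at a boundary. Each fold is of a peak at a boundary of the gene, so the 2 peaks need not overlap. The RNaseH1 peak that overlaps the REXO4 peak had fold 2.69 at SOX12, 2.16 at SOX18 and the same 2.45 at TFDP1. The REXO4 peak at PTBP1 is the one named after PLPPR3, with an overlapping RNaseH1 fold of 3.65. The one at ATG4B is named after THAP4, with 3.61. The genes of this paragraph were chosen after their values were seen.

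Lists of genes known to be widely expressed were mostly covered. Of 13 housekeeping genes of 11p, 12 had an RNaseH1 peak, led by TALDO1 (fold 4.07, pentose phosphate pathway), DEAF1 (4.00), PHRF1 (3.67) and RPLP2 (3.42, ribosomal stalk). All 8 widely expressed neighbours of the alpha-globin cluster at 16p had one, led by FAM234A (4.05), AXIN1 (3.26, a scaffold of beta-catenin destruction), and POLR3K and SNRNP25 (2.91 each). Of 10 genes for mitochondrial proteins 9 had one, such as COX19 (3.60), DTYMK (3.52), MRPL41 (3.45), and SCO2 and TYMP, which share a peak of 3.42. The list had 12 symbols, and NDUFS6 and SLC25A6 were not in the ends. These counts read against 68.2% of protein-coding genes.

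Genes known for other tissues had a mixed pattern. The counts of this paragraph, all of protein-coding genes, also stand beside 68.2%. Of 14 neuronal and other-tissue genes 7 had an RNaseH1 peak (50.0%), led by SHANK3 (4.32, synaptic scaffold), HBA1 (3.87), HBZ (3.52) and CPLX1 (3.13, synaptic vesicle fusion), and GRIN3B of this list was not in the ends. For REXO4, DRD4 was the only one of them with a peak at a boundary (3.39). SHANK3 held a REXO4 peak of 2.22 inside the gene, more than 1 kb from either boundary. An RNaseH1 peak of 2.15 overlapped it. Another REXO4 peak of 2.22 lay outside NPBWR2, with its summit 1417 bp away. The alpha-globin genes themselves had an RNaseH1 peak in 3 of 5 cases, with HBQ1 highest at 5.08. Neutrophil granule genes had 2 of 5 (CFD and ELANE, 2.85), and IFITM genes, which restrict virus entry, had 1 of 4 (IFITM3, 3.47). A further list, of 22q genes, goes by location and not by tissue. There 8 of 12 listed genes had an RNaseH1 peak, with SHANK3 followed by RABL2B (3.69), NCAPH2 (3.42, condensin) and LMF2 (3.40). ARSA, the lysosomal arylsulfatase A gene, also had a REXO4 peak (2.74 beside 3.30). Each list is short, and the lists share genes, so their counts are not separate observations. HBA1, HBZ, ELANE, AZU1, SHANK3 and ACR of the neuronal and other-tissue list are each counted again in another list. HBA1 and HBA2 are near-identical copies.

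Zinc finger genes, common near chromosome ends, had an RNaseH1 peak in 54 of 74 cases. Of the 60 that are protein-coding, 45 had one, 75.0% (62.1 to 85.3), against 70.8% of the 531 protein-coding zinc finger genes elsewhere, and these intervals overlap. The highest were ZNF584 at 19q (4.45), ZNF276 at 16q (4.38), ZNF596 at 8p (3.85) and ZNF417 at 19q (3.83). ZNF512B at 20q was the only one with a REXO4 peak at a boundary (1.51). The REXO4 peak of ZBTB46 at 20q (4.10) lay inside the gene, more than 1 kb from either boundary. It overlapped the promoter of an annotated ZBTB46 start there (chr20:63831215-63831514, 89.7% GC). Of 62 members of the duplicated subtelomeric families, 24 had an RNaseH1 peak at a boundary. Of the 40 that are pseudogenes, 16 had one (40.0%), beside 10.6% of all pseudogenes on chromosomes 1 to 22 and 18.8% of the 394 in the ends. The protein-coding members had 2 of 11, beside 68.2%. The highest folds were those of the DDX11L copies at 9p, 15q, 1p and 12p given above. Only DDX11L17, 1 of the 40 pseudogenes, had a REXO4 peak at a boundary. The share was 2.54% of the 394 pseudogenes in the ends and 0.425% of all pseudogenes on chromosomes 1 to 22. Among WASH copies, relatives of a gene for an actin-regulating complex, WASH7P at 1p had 4.66 and WASH3P at 15q 4.02. Of the 5 genes of 4q and 10q, FRG1 (3.40) and DUX4 (3.17) had one.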

How the data were processed

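The labels describe Flag ChIP-seq and input libraries of U2OS cells, and 2 deposited peak lists, 1 per protein, were analysed. Per the submitters' processing notes, peaks are in hg38 coordinates and the tools named are MACS2 2.1.0.20150731, deepTools 3.5.1, HISAT2 2.2.1, Trim Galore 0.6.10, SAMtools 1.17 and Cufflinks. Not given in the sources used here are their roles, the control and how repeated reads were treated. Fold enrichment is a ratio and the p and q are −log10 values, all as deposited by the authors, and the deposited score was not used. The depth per library is unknown. Peak names carry the label ChIPseq2, so a list may rest on 1 library.

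The number of fragments at a summit and its expected pileup were solved from the peak's fold and p under a Poisson tail, and were taken as whole within 0.05 fragments (1369 of 1370 REXO4 and all 52247 RNaseH1 peaks of chromosomes 1 to 22). Genes came from RefSeq (GRCh38.p14): 58957 of 59792 were kept, and 835 without a usable position were left out. A gene had a peak when 1 overlapped the 1 kb on either side of a boundary. Chromosome lengths of hg38 came from general knowledge, and unsequenced stretches count as length. Intervals are exact Poisson or binomial ones, and those of ratios are conditional on the total. The ratio intervals and the recovery of fragments were tested on simulated data. They treat peaks as independent. With no value per library, no test between conditions was made. Scripts ran on Python 3.11.15 with pandas 2.3.3, NumPy 2.4.6, matplotlib 3.10.9 and SciPy 1.17.1.

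Members and lists were chosen with earlier results of these data known. The rule for named peaks took per list the 8 end peaks of highest fold, the 6 nearest an end and, with over 12 pairs, the 8 that ranked best in both lists, the ends with most and fewest peaks, and up to 4 genes per gene list by RNaseH1 fold plus every member with a REXO4 peak. Alternatives changed the window, the q limit, the overlap, the gene window, the rest that was compared and the ends included.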

Additional observations from a re-analysis of the deposited data

How the results depend on the processing

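No paired analysis was possible because the lists hold no value per library, and for the same reason no library could be left out. Of 54 alternatives, 40 kept the value within its counting interval, and no ratio fell below 1. With a window of 500 kb the intervals of both ratios per gene included 1. They were 1.38 (0.911 to 2.00) for REXO4 and 1.03 (0.957 to 1.10) for RNaseH1. The RNaseH1 density ratio of 2.61 was 2.02 with a window of 500 kb, 2.90 with 2 Mb, 3.07 with distance counted from the outermost gene, 2.80 against a rest without rDNA and gene-free stretches, and 2.95 over 39 ends. The RNaseH1 ratio per gene of 1.25 was 1.03 with 500 kb and 1.41 with 2 Mb. The share of REXO4 end peaks that overlap RNaseH1 was 69.8% when 50% of the peak had to overlap and 50.8% with summits within 200 bp. Neither rule was applied to the whole REXO4 list, so these shares do not stand beside 71.8%. The share of protein-coding end genes with an RNaseH1 peak was 79.8% with 2500 bp, 82.3% over the gene body and 67.6% with 500 kb. The values with 2500 bp and over the gene body were not computed for all protein-coding genes. The value with 500 kb stands beside 68.2%. The REXO4 share of protein-coding end genes was 3.48% with 500 kb, beside 3.96%, and the median RNaseH1 fold was 2.95 with 500 kb. The cause was not tested. The alternatives over 39 ends, without terminal peaks and without the DUX4 arrays were chosen after seeing the data. With 63 peaks, REXO4 densities per interval of distance rest on 0 to 10 peaks each, so differences between intervals beyond 12 kb were not detectable at this depth.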
